A study of Drosophila melanogaster with 3 samples.

Results

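The neighbouring genes tara, gish and bor on chromosome 3R of Drosophila melanogaster lie in a dense cluster of sqz-GFP peaks. The 3 genes were chosen by the number of thresholded peaks in a 100 kb window, so the counts and strengths of these peaks are a description and carry no test. The members are the 26 of 6578 thresholded peaks whose summit lies in the body of tara, gish or bor or within 5 kb of it. The same rule took 74 of 30000 peaks in the list made from all libraries together and 60, 74 and 74 of 30000 in replicates 1, 2 and 3.

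The samples formed 1 group of 3 biological replicates, each made from mixed-sex whole embryos collected at 0 to 16 h from a transgenic line in which sqz carries GFP at its C terminus and is expressed stably. Chromatin immunoprecipitation followed by sequencing (ChIP-seq) recovers the DNA that a chosen protein occupies. The labels give sqz as the antibody target, while 1 label text calls the libraries an input control; the deposited file records list a separate control alignment, and the libraries were read as ChIP. There was no second genotype, age or treatment, and whole embryos mix all cell types and stages of that span, so a peak cannot be placed in any of them. All libraries share 1 line and 1 control, and depth cannot be given because the peak lists carry no counts of reads.

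The factor, Squeeze (sqz), is a zinc finger protein of the Krüppel type that acts in specifying neurons of the embryonic nerve cord. The gene tara (taranis) encodes a transcriptional co-regulator of the Trip-Br (SERTAD) family, known for genetic interactions with the trithorax group and for ties to cell cycle regulators, and it promotes sleep. The product of gish (gilgamesh) is a casein kinase I of the gamma type, a membrane-associated kinase known for roles in glial migration and sperm formation. The gene bor (belphegor) encodes an ATPase of the AAA family, the fly relative of the mitochondrial protein ATAD3A.

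The sequences below carry the strongest sites in and upstream of tara, and the peaks at its second start site and at that of bor. They also carry the site with most GAGAG words and, for contrast, the weakest member. Each runs 5′ to 3′ on the plus strand of dm6 (Release 6, RefSeq) over 100 bp on each side of the summit. The site between bor and asun is cut to the 123 bases that lie outside annotated exons. Capitals mark any of the 7 words searched on both strands, so a word on the minus strand shows as its reverse complement (CTCTC for GAGAG, a run of T for a run of A).
tara intron, strongest peak (peak 9, chr3R:16235586-16235786): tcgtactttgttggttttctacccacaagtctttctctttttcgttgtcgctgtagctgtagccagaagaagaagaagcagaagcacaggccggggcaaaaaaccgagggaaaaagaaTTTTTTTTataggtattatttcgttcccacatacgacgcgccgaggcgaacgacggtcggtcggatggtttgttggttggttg
tara intron, distal pair (peak 17, chr3R:16253050-16253250): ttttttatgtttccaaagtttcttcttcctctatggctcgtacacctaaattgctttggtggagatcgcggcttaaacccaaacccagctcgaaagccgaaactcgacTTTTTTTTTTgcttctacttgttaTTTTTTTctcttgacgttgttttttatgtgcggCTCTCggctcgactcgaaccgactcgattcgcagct
tara intron, distal (peak 16, chr3R:16250443-16250643): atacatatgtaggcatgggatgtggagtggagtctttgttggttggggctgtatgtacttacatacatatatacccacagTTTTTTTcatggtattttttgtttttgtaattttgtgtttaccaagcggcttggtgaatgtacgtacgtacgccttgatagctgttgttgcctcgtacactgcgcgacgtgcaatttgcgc
upstream of tara (peak 5, chr3R:16224415-16224615): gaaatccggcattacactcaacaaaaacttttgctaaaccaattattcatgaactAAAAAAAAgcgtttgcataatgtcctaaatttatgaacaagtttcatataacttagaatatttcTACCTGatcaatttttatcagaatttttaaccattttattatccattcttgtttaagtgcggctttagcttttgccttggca
tara, second start site (peak 14, chr3R:16242575-16242775): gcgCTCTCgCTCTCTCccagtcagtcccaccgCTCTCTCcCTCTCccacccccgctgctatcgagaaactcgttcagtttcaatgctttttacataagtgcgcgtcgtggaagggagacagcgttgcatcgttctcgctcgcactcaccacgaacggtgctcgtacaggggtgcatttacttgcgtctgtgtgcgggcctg
between bor and asun (peak 21, chr3R:16264116-16264238): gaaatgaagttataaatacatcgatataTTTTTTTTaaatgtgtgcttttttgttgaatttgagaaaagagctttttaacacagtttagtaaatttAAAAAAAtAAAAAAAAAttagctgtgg
gish intron (peak 23, chr3R:16277613-16277813): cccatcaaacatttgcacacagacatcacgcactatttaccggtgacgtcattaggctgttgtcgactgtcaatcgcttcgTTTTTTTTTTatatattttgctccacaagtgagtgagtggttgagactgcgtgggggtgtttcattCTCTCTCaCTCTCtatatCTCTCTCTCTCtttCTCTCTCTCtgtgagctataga
gish intron, weakest peak (peak 22, chr3R:16276177-16276377): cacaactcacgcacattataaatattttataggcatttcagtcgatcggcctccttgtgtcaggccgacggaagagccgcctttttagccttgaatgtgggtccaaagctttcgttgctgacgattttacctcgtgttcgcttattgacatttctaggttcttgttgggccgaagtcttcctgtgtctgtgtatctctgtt

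The peaks divided unevenly among the 3 genes. The body of tara (FBgn0040071, 16225651 to 16260329, plus strand) and 5 kb around it held 21 thresholded summits, or 4.70 per 10 kb. The same window of gish (FBgn0250823, 16272452 to 16304768, plus strand) held 5, or 1.18 per 10 kb, although both genes span over 32 kb. The window of bor (FBgn0287225, 16261355 to 16264115, minus strand) held 2, both also within 5 kb of tara, and its 2761 bp body held 0. Over the joined region of 89.1 kb there were 2.92 summits per 10 kb, against 0.491 over the whole genome, a difference that the choice of the genes fixes. Of all 13945 protein-coding genes, 7 had more thresholded summits than tara within the same distance, 345 had more than gish and 1779 had more than bor. The window grows with the gene, and 549 genes were longer than tara and 611 longer than gish.

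**Figure D1:**
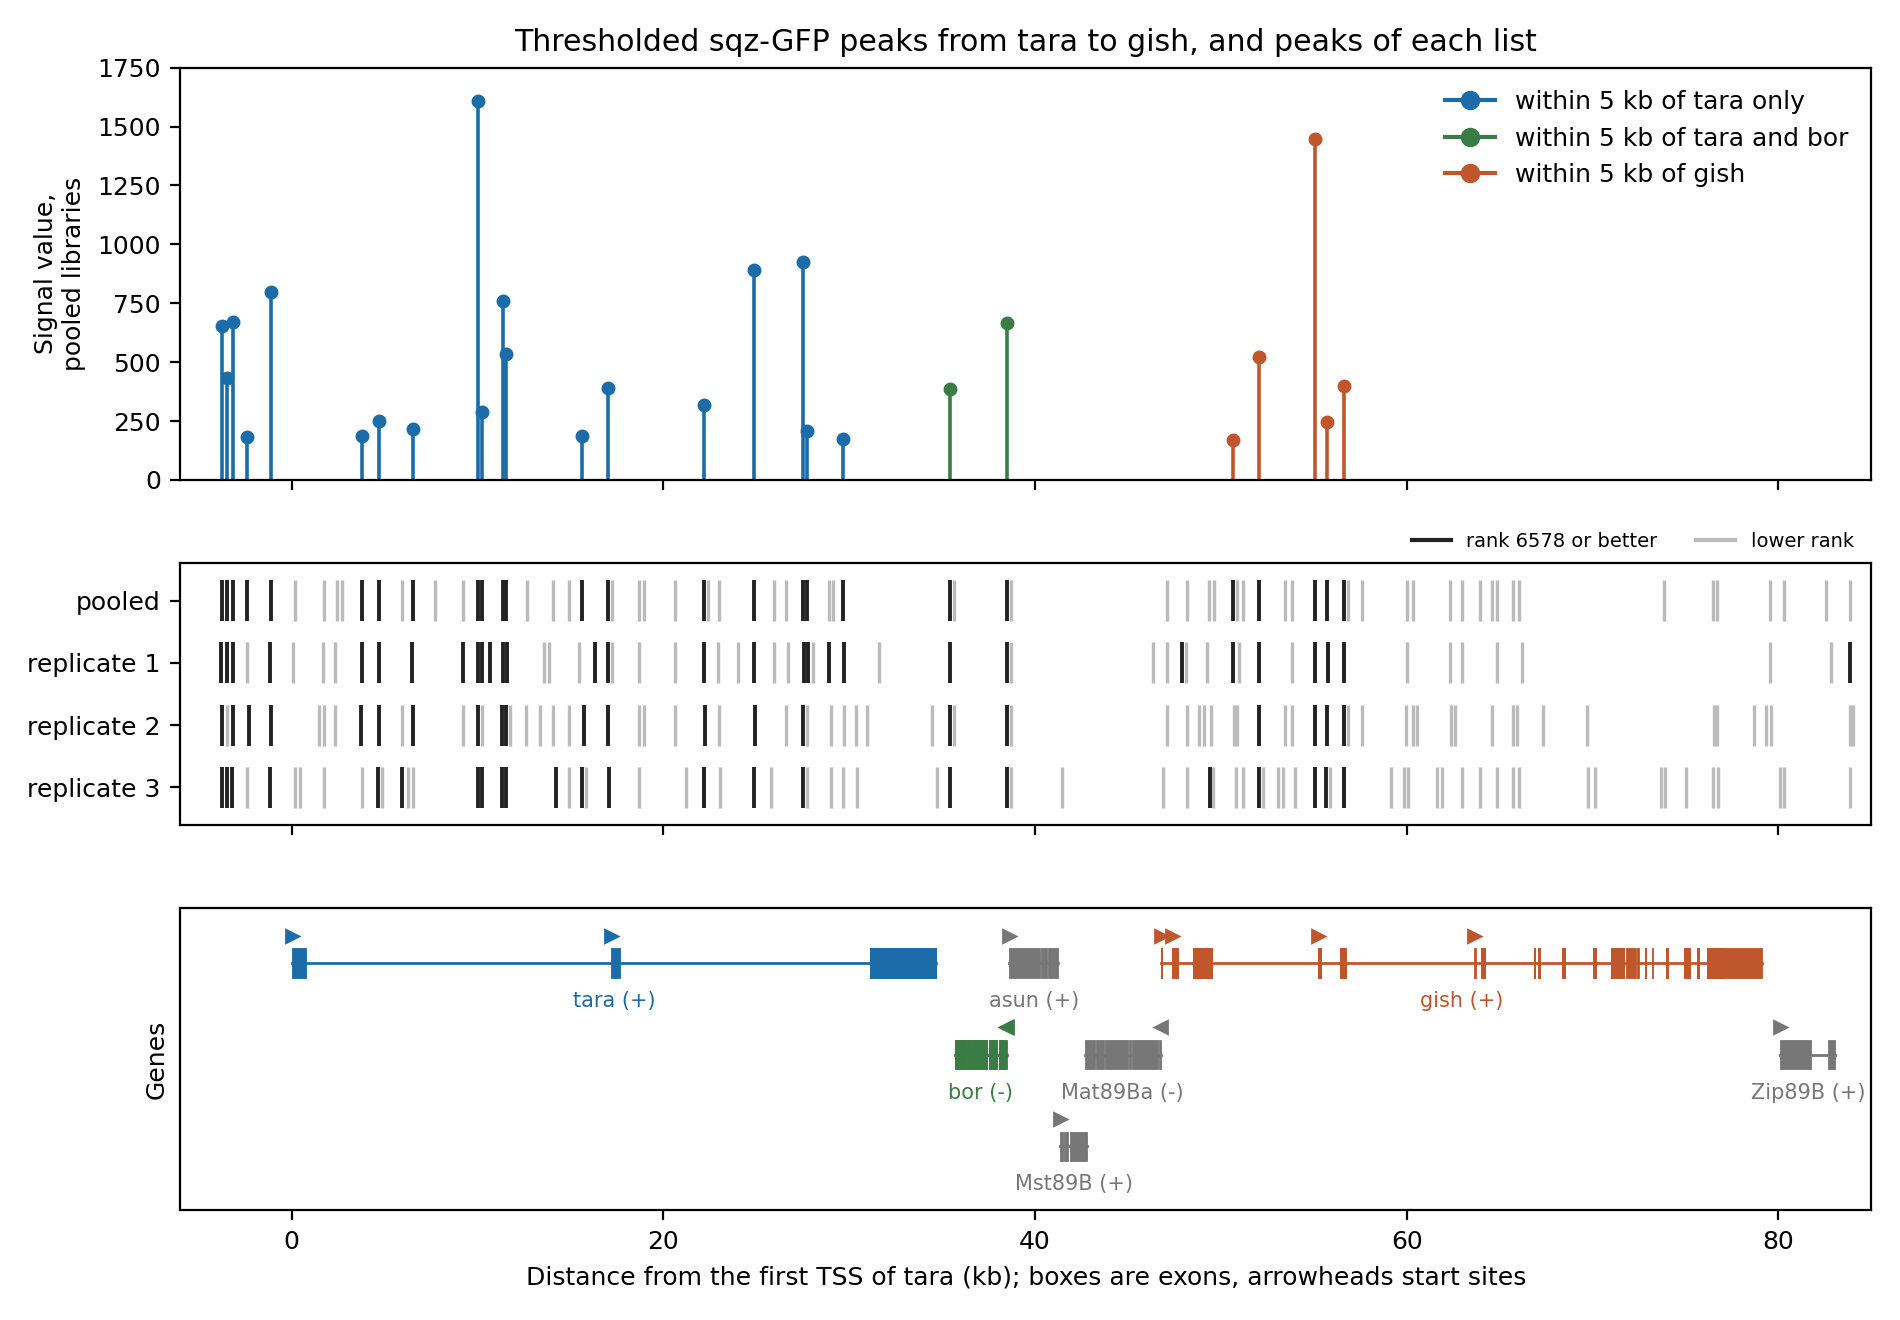
Top, signal value (authors' scale, pooled libraries) of the 26 thresholded peaks against distance from the first TSS of tara in kb; middle, summits of the pooled list and of replicates 1, 2 and 3, black where the rank is 6578 or better and grey below; bottom, genes with exons as boxes and start sites as arrowheads. The thresholded peaks end in the 5′ part of gish, and its 3′ part holds grey summits only.

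The strongest member lay in the long first intron of tara. Its summit at 16235686 (peak 9; the letters are printed above) had a signal value of 1608 and stood at rank 41 of the 6578 thresholded peaks, 10035 bp downstream of the first transcription start site (TSS) of tara and 7130 bp upstream of the second. The signal value is the strength given by the authors' peak caller on a scale the sources do not state, so ranks are used to compare lists. In replicates 1, 2 and 3 this peak had ranks 208, 26 and 30. It was the strongest summit of the cluster in replicates 2 and 3 and the third strongest matched member in replicate 1.

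The intron of the tara-RA transcript spans 30.3 kb (16226440 to 16256777) and held 14 thresholded summits, 5 of them also in the 13.4 kb intron of the shorter tara-RB transcript. Both transcripts have 2 exons, and the last exon of 3.55 kb held no thresholded summit. Around the strongest peak stood a second summit 201 bp away at 16235887 (peak 10, signal value 287.8) in an almost identical interval. A close pair followed at 16237008 (peak 11, 761.7) and 16237209 (peak 12, 534.9), again 201 bp apart. Peak 11 ranked 252, 516 and 477 in the 3 libraries and peak 12 ranked 1908, 748 and 766, so replicate 1 placed the first of the pair higher than the other libraries did and the second lower. Peak 10 was less steady, with ranks of 4433, 13237 and 1670.

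Farther along the intron, beyond the second start site, stood 2 more of the 5 strongest members. The summit at 16253150 (peak 17) had a signal value of 926.8 and ranks of 1086, 184 and 116 in replicates 1, 2 and 3. The summit at 16250543 (peak 16) had a signal value of 891.9 and ranks of 664, 172 and 209. Both lay over 7 kb from any TSS, and both ranked lower in replicate 1 than in the other libraries. Peak 17 shared its interval with a weaker summit 206 bp away (peak 18, signal value 207.9), whose ranks of 2651, 12037 and 8479 ran the other way. The replicate 1 summits matched to peaks 17 and 18 lay 65 and 93 bp away, the second near the 100 bp limit. In replicates 2 and 3 the matched summits were at most 18 bp away. The summit at 16255309 (peak 19, 175.1), the last in the intron, had its ranks in the same order as peak 18, at 3356, 8688 and 8598. The remaining summits of the intron were among the weaker members. Peaks 6, 7 and 8, at 16229414, 16230334 and 16232156 toward its 5′ end, had signal values of 184.7, 249.3 and 217.6, and replicate 3 gave peaks 6 and 8 ranks of 11094 and 12847, outside its strongest 6578. Peak 15 at 16247850 had a signal value of 317.2 and ranks of 1287, 4520 and 2167, inside the strongest 6578 of every library.

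Upstream of tara, the 5 kb flank held 5 summits, none of them at the first start site. Neighbouring summits at 16221880, 16222178 and 16222478 (peaks 1, 2 and 3) stood 298 and 300 bp apart, with signal values of 655.1, 431.6 and 669.2. All 3 had their best rank in replicate 1, at 172, 461 and 312. Replicate 2 gave 794, 7862 and 1126, and replicate 3 gave 1146, 1878 and 418. Peak 2 was thus outside the strongest 6578 of replicate 2. The nearest summit to the first TSS was at 16224515 (peak 5, 797.6), 1136 bp upstream, with ranks of 651, 278 and 313. The fifth of the group, at 16223262 (peak 4, 184.3), ranked 7275, 3239 and 8144.

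At the start sites the 3 genes differed. Of the 8 annotated start sites of tara, gish and bor, 4 had a thresholded summit within 500 bp, where 16.8% of the 19252 protein-coding start sites in the genome did. The genes were chosen for their number of peaks, so this difference is a description only. Both start sites of bor count the same summit. The second TSS of tara (16242816, tara-RB) had a summit 141 bp upstream (peak 14, signal value 390.1, ranks 1114, 2354 and 2168), while the first (tara-RA) had none. At the first TSS the libraries gave at best a rank of 11940 in replicate 1 and 14765 in replicate 3, and replicate 2 listed no summit within 500 bp.

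The promoter of bor was covered by a summit at 16264138 (peak 21), 23 bp upstream of the start of bor-RB and 43 bp upstream of that of bor-RA. The neighbouring gene asun, known for roles in sperm formation and in the Integrator complex, starts on the opposite strand, and the same summit lay 133 bp upstream of its TSS, so the peak lies between divergent start sites and cannot be given to either gene alone. Its signal value was 667.8, with ranks of 1879, 361 and 575. The region between tara and bor, where both genes end, had 1 thresholded summit at 16261078 (peak 20, 384.1) outside any protein-coding gene. It ranked 1035, 2412 and 3017 in replicates 1, 2 and 3. Within the bor body none of the 5 lists had a summit.

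In gish the thresholded peaks gathered at the third of 4 start sites. The summit at 16280714 (peak 24) had a signal value of 1448, rank 55 of 6578, and lay 175 bp upstream of the TSS at 16280889, where 5 of the 16 annotated transcripts begin. It ranked 36, 91 and 62 in replicates 1, 2 and 3 and was the strongest summit of the cluster in replicate 1. Its ranks lay closer together than those of peak 9. Downstream of the same TSS stood weaker summits at 16281385 (peak 25, 496 bp, signal value 247.3) and 16282288 (peak 26, 399.5), the second in an exon that holds 5′ UTR of the transcripts starting there. Peak 26 ranked 1757, 1396 and 2474.

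The other start sites of gish had no thresholded summit within 500 bp, among them the first 2, where 10 of the 16 transcripts begin. The best ranks at the first 2 were 14461, 7915 and 25596 in replicates 1, 2 and 3, against 36, 91 and 62 at the third. At the fourth start site only replicate 3 listed a summit, at rank 15021. Upstream of the third start site the intron held a summit at 16277713 (peak 23, 520.1, ranks 1990, 672 and 1069) and the weakest member at 16276277 (peak 22, 168.4). That last peak ranked 4107 and 9139 in replicates 1 and 2 and had no summit within 100 bp in replicate 3. From the last member to the end of gish, 22.5 kb held no thresholded summit. The gap between the bor promoter and peak 22 was 12.1 kb (12139 bp) and spans asun, Mst89B, Mat89Ba and the first start sites of gish.

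**Figure D2:**
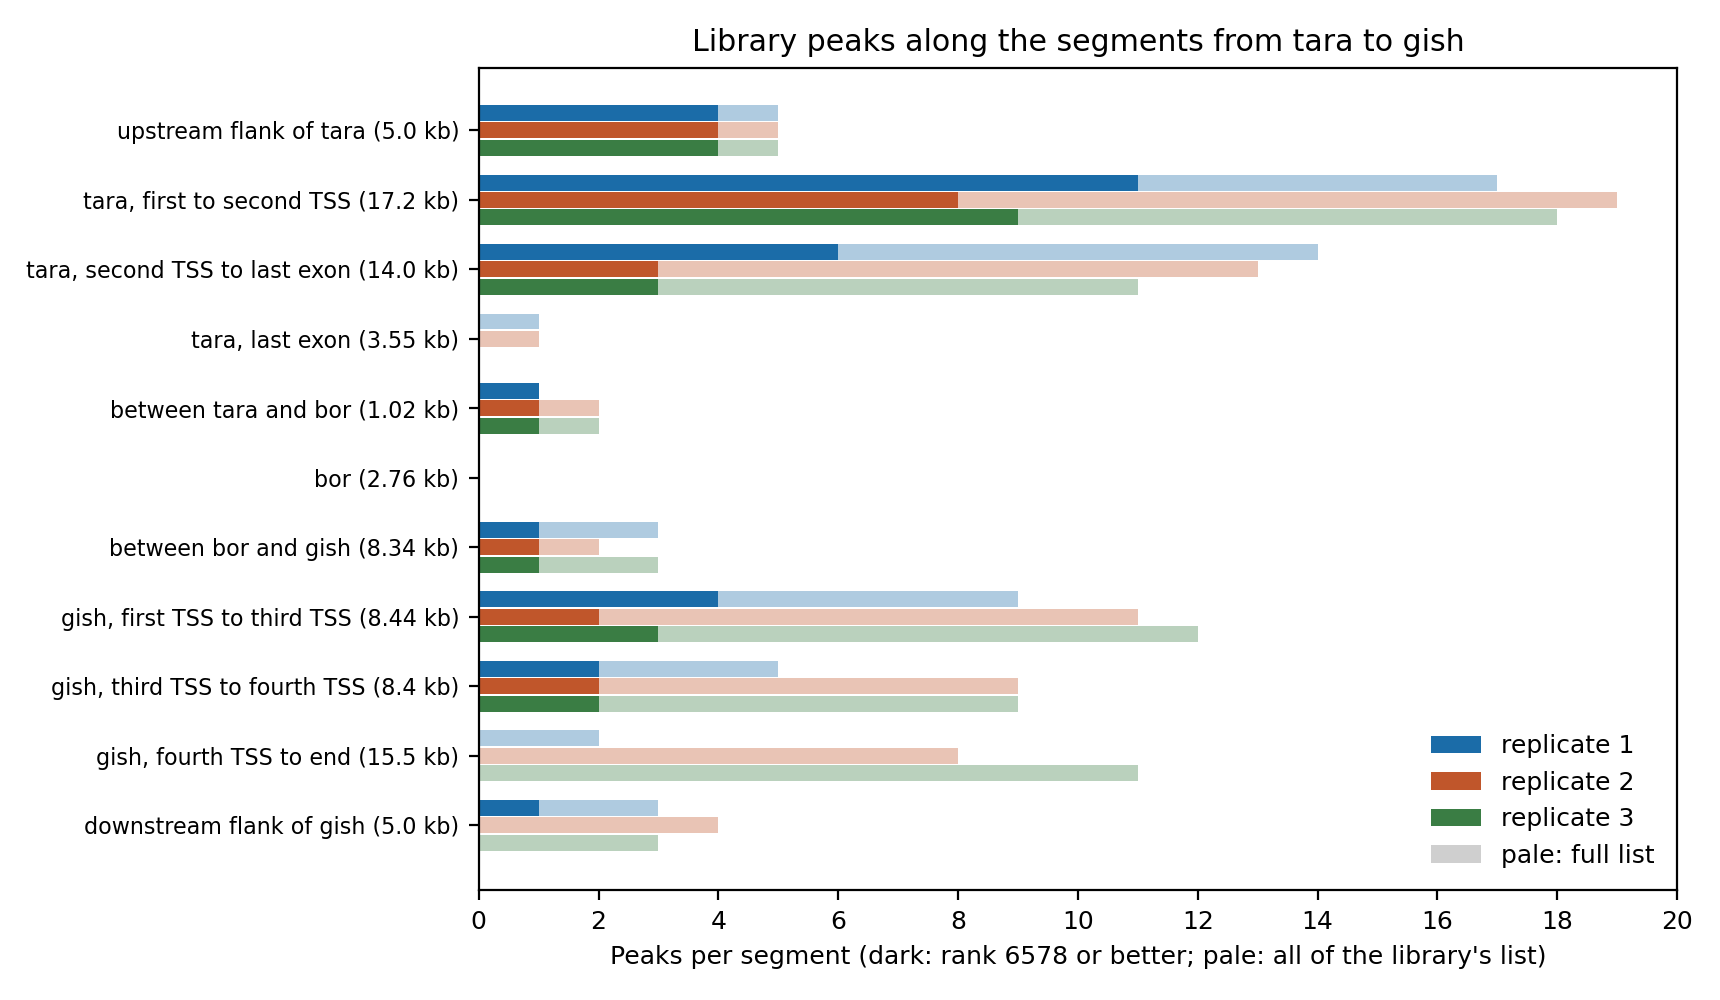
Number of library summits (x axis) in successive segments from the 5′ flank of tara (top) to the 3′ flank of gish (bottom), for replicates 1, 2 and 3; dark bars count summits of rank 6578 or better and pale bars the full list. The bor body holds none in any library, and the 15.5 kb from the fourth TSS of gish to its end hold 0 dark summits.

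The 3 libraries filled the region to different degrees. Replicate 1 had 60 summits in the region, 30 of them among its strongest 6578. Replicates 2 and 3 had 74 each, with 21 and 23 among the strongest. Replicate 1 thus listed fewer summits in all but more strong ones. For tara and 5 kb around it, the summits among the strongest 6578 numbered 23, 17 and 18 in replicates 1, 2 and 3, for gish 7, 4 and 5, and for bor 2 in each. In the segment from the fourth TSS of gish to its end the full lists held 2, 8 and 11 summits, with best ranks of 19243, 8628 and 11225.

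Most members recurred in the single libraries. Replicate 1 placed one of its strongest 6578 summits no more than 100 bp from 24 of the 26 (92.3%, 95% Wilson interval 75.9 to 97.9) and replicates 2 and 3 did so for 20 each (76.9%, 57.9 to 89.0). The mean was 82.1% ± 8.88 (SD, n = 3), against 76.0% ± 6.78 for all thresholded peaks. Replicate 1 thus had the highest share at these genes, while over all thresholded peaks its share was the lowest, at 68.2%, against 80.6% in replicate 2 and 79.2% in replicate 3. The cause was not tested.

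In all, 17 of the 26 members (65.4%, 46.2 to 80.6) were met in all 3 libraries, where the background over all thresholded peaks was 48.6%. The interval of the members includes the background. The members were also stronger than most, with 14 of 26 in the strongest quartile of the thresholded list. Whether strength bears on the share met was not tested. No member was unmet in every library, against 2.04% of all thresholded peaks. Met in 2 or more were 21 (80.8%), near the 81.4% of all thresholded peaks. With the full lists, 25 of 26 (96.2%) had a summit within 100 bp in each library, against 90.5%, 94.7% and 94.6% of all thresholded peaks in replicates 1, 2 and 3. The exceptions were peak 22 in replicate 3 and the intronic summit at 16241291 (peak 13, signal value 184.9), which replicate 3 alone met within 100 bp, at rank 2920. Replicate 2 had a summit at 16241401 (rank 3596), just beyond that distance, in an interval that overlaps that of peak 13. Because the thresholded list was itself made from the 3 libraries, its recurrence in them is a description only.

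**Figure D3:**
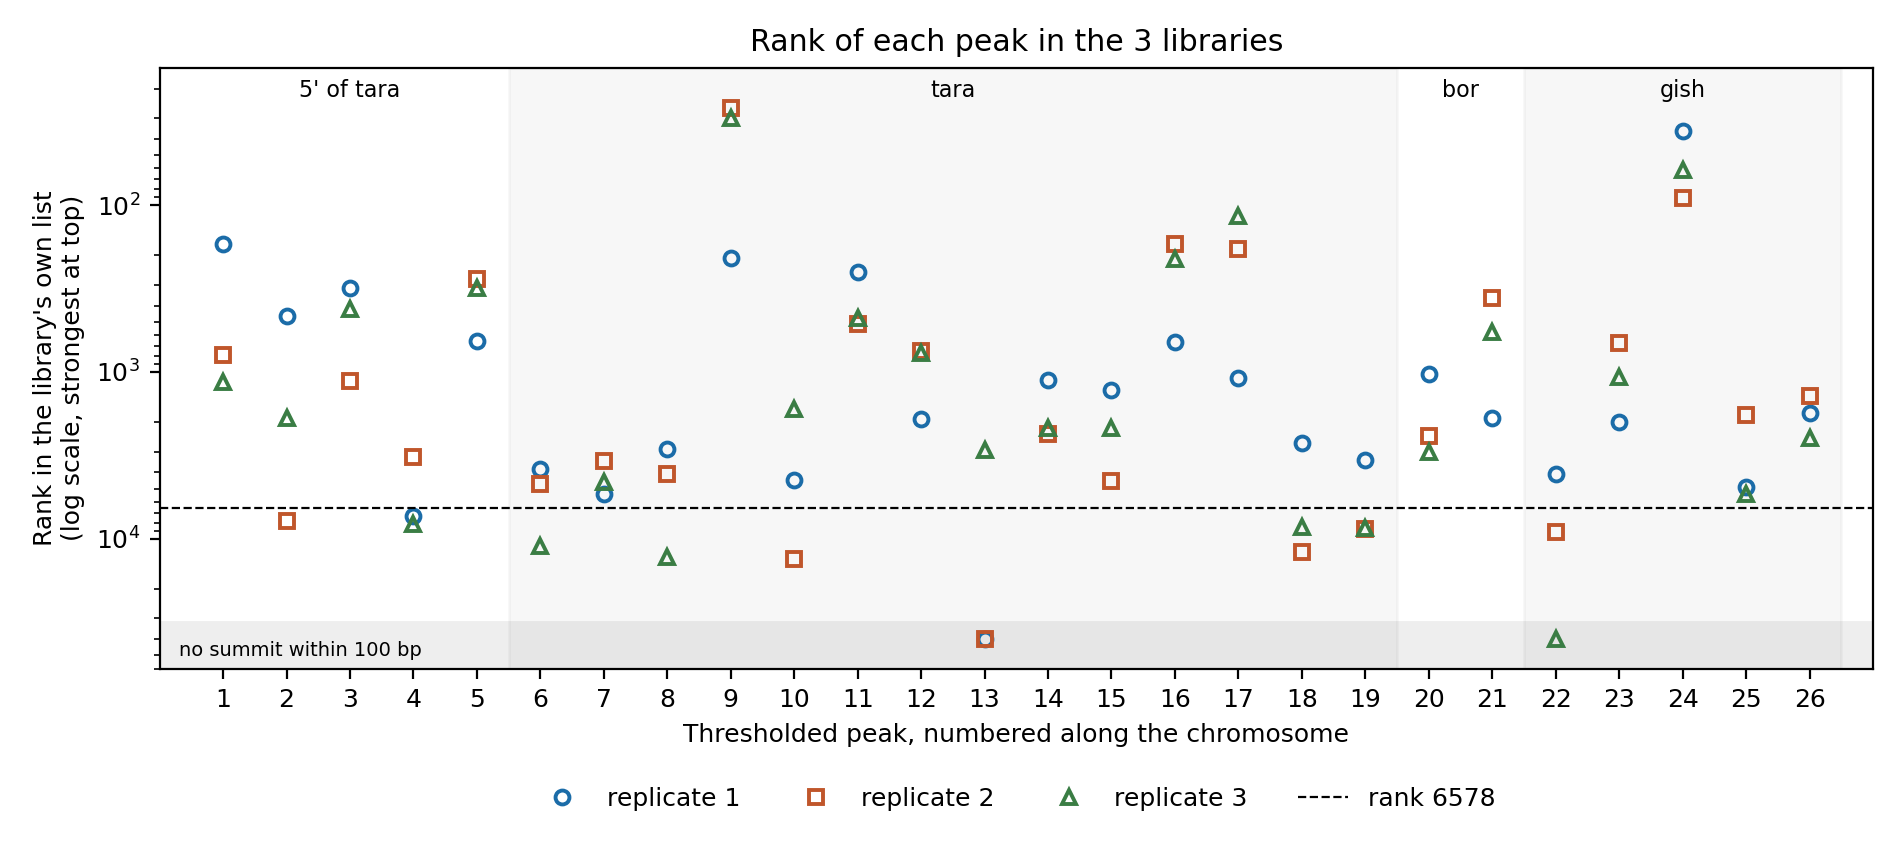
Rank of each of the 26 thresholded peaks (x axis, numbered along the chromosome) in the lists of replicates 1, 2 and 3 (y axis, log scale, strongest at top); the dashed line is rank 6578, and symbols in the grey band had no summit within 100 bp. Peak 9 in tara and peak 24 in gish reach the best ranks, and peak 2 has the widest spread between libraries, 17.1 times from best to lowest rank.

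Offsets were measured for library summits already within 100 bp of a member. The median distance from a member summit to its library summit was 6 bp in replicate 1, 5 bp in replicate 2 and 10 bp in replicate 3, against 17, 9 and 13 bp over all thresholded peaks. Among the 24 members found in the full lists of all libraries, the lowest rank was a median of 2.97 times the best rank, ranging from 1.58 to 17.1 times, against a median of 2.36 over 5380 thresholded peaks. Replicate 1 gave the best rank for 12 of the 24 members (50%), against 31.4% over those 5380 peaks, and replicates 2 and 3 gave it for 10 and 2. Spearman's rho of the ranks, as a description across peaks that share their libraries, was 0.63 between replicates 1 and 2 (25 peaks), 0.73 between 1 and 3 (24 peaks) and 0.83 between 2 and 3 (24 peaks). Over all thresholded peaks rho was 0.58, 0.59 and 0.73.

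The members lay in introns more than at start sites. There were 15 of 26 in introns (57.7%, 38.9 to 74.5), against 41.8% (40.6 to 43.0) of the 6552 other thresholded peaks. Within 500 bp of a TSS were 4 (15.4%, 6.15 to 33.5), against 37.9% (36.8 to 39.1) of the others. Over 5 kb from any TSS were 10 (38.5%, 22.4 to 57.5), against 25.9% (24.8 to 27.0). The members' intervals for introns and for over 5 kb include the shares of the others. Intergenic summits were 6 (23.1%, against 18.2% of the others) and a 5′ UTR summit 1 (3.85%, against 1.08%). Coding exons and 3′ UTRs held 0 of 26, which allows a share of up to 12.9% each by the Wilson interval. They were also rare among the others, at 0.122% and 0.809%. The 30.3 kb intron of tara alone takes a large part of the 89.1 kb region. The intervals cover counting error only, as neighbouring peaks are not independent.

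The summits also stood closer together than usual, as the choice of a dense window brings with it. The median distance to the nearest thresholded summit was 911.5 bp, against 1916 bp for the other thresholded peaks. A neighbour within 500 bp was present for 9 of the members (34.6%), against 20.4% of the others. Merging overlapping intervals left 23 of 26. The close pairs at 201, 201 and 206 bp sit near the smallest spacing in the deposited lists, which was 199 bp in the thresholded list and in each library. Of 680 neighbouring thresholded summits under 500 bp apart, 649 were under 300 bp apart, and whether such pairs are separate sites was not tested.

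**Figure D4:**
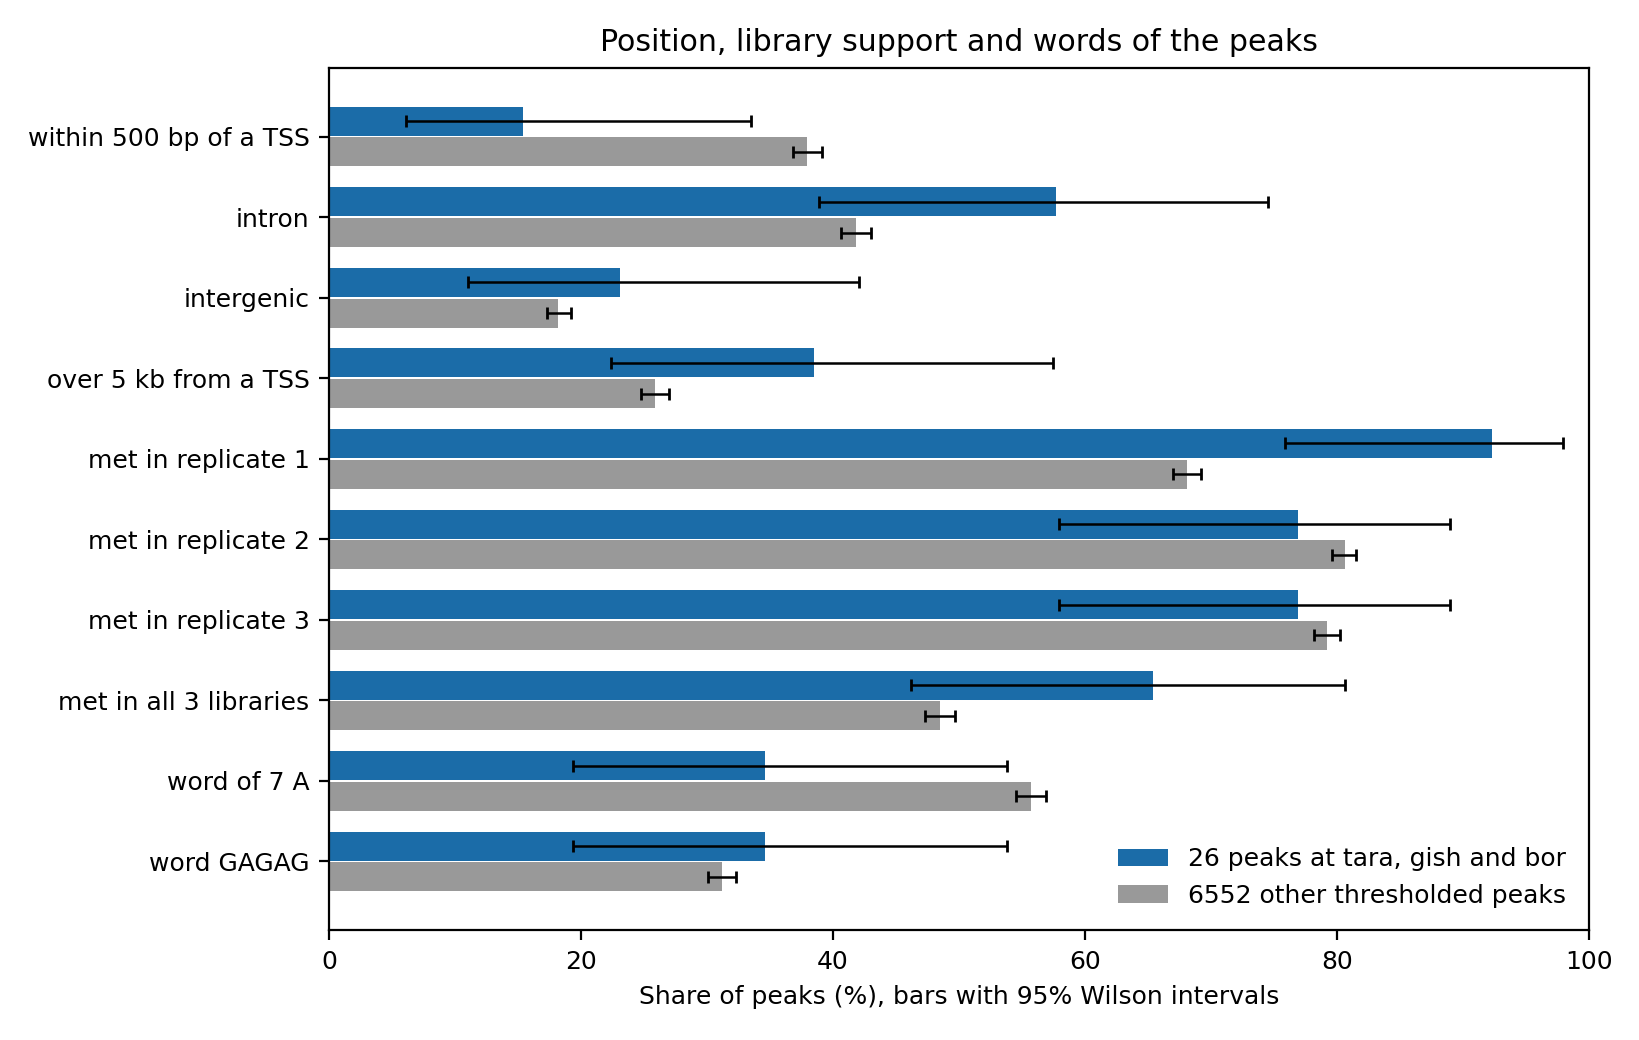
Share of peaks in percent (x axis) with each property, for the 26 members (blue, upper bar of each pair) and the 6552 other thresholded peaks (grey, lower bar), with 95% Wilson intervals. The members show fewer summits within 500 bp of a TSS (15.4% against 37.9%) and fewer runs of A (34.6% against 55.7%), with wide intervals.

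Of the 7 words sought within 100 bp of each summit, a run of A and GAGAG were the most frequent at the members. The word AAAAAAA was present at 9 of 26 (34.6%, 19.4 to 53.8), against 55.7% (54.5 to 56.9) of the other thresholded peaks. GAGAG, the core of the word bound by the GAGA factor, was also present at 9 (34.6%, 19.4 to 53.8), against 31.2% (30.1 to 32.3). It was repeated in a few places: 10 times at peak 23 in the gish intron, 6 times at the second TSS of tara (peak 14) and 4 times at peak 13 in the tara intron, counting overlapping matches. In the printed sequence of peak 14 these lie as CTCTC words 5′ of the summit. In that of peak 23 they lie 3′ of the summit, with a run of T on its 5′ side.

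The runs of A were at 4 of the 5 strongest members, peaks 9, 17, 16 and 5. Among the 17 members in the strongest 3289 thresholded peaks they were at 6 (35.3%), against 34.6% of all members. The 17 are themselves most of the members, so the 2 shares cannot differ much, and a link to strength was not tested. Peak 9, the strongest, held 2 overlapping matches, visible as a run of 8 T just 3′ of its summit. The bor and asun promoter held 6 matches, and peak 4 upstream of tara held 8. CAGGTA, part of the word bound by the early embryonic factor Zelda, was found once, at peak 5 (3.85%, against 4.13% over all thresholded peaks). CACACACA and the E-box CAGCTG were each at 2 members (7.69%), against 9.76% and 8.97% over all, and these counts are too small to give a direction. TATCGATA, the DNA replication-related element, and GGTCACACT, the word of the promoter factor M1BP, were at 0 of 26, against 1.92% and 1.49% over all. No word was found at 9 of 26 members, against 23.7% of all thresholded peaks, among them peak 22. A missing word says only that these letters are not in this window. Members had a median GC content of 43.0% in the same window, against 39.8% for the others.

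At the edge of the thresholded list the members passed over into weaker peaks with no clear break in strength. The weakest inside had signal values of 168.4 (rank 6408, gish intron) and 175.1 (rank 6076, tara intron). The strongest pooled peaks just outside had 150.0 (rank 7494, at 16309479 in the 3′ flank of gish), 141.4 (rank 8137, at 16234855 in the tara intron) and 138.9 (rank 8320, at 16275028 in a gish exon with 5′ UTR). Some of these were stronger in a single library. The summit near 16234866 ranked 3071 in replicate 1, and the one near 16275041 ranked 4129 in replicate 3. Of the library summits in the region that lay over 100 bp from any thresholded summit, 6, 1 and 3 were among the strongest 6578 of replicates 1, 2 and 3. The strongest of these in each library, at 16234866, 16241401 and 16275041, had no counterpart within 100 bp among the strongest 6578 of either other library, but the summit at 16241401 in replicate 2 overlaps peak 13, whose summit in replicate 3 lies just outside that distance.

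Genes tied to the 3 members by function were set beside the genome as a whole. Over all 13945 protein-coding genes, 41.9% had a thresholded summit in the body or within 5 kb, and their median length was 2.17 kb. Of 9 cell cycle genes, listed because tara is tied to that machinery, 8 had one (88.9%, 56.5 to 98, median length 4.39 kb). They included CycB (strongest signal value 1585), which encodes a mitotic cyclin, E2f1 (1035), a transcription factor of the S phase, CycE (786.5) and stg (661.9), which encodes a Cdc25 phosphatase. CycA and Cdk1, which act with tara in the control of sleep, had strongest signal values of 208.6 and 301.2, and the CycB, CycA and Cdk1 summits lay outside the gene bodies. Of 11 trithorax group genes 8 had a summit (72.7%, 43.4 to 90.3, median length 12.8 kb), led by ash1 (2543, outside the gene body), by Trl (1983), which encodes the GAGA factor, and by the chromatin remodeller genes brm (1101, outside the gene body) and kis (944.6).

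For the casein kinase I family of gish, 5 of 8 genes had a summit within the same distance (62.5%, 30.6 to 86.3, median length 3.05 kb). That count includes gish, which was chosen for its peaks, and without it 4 of 7 had one (57.1%, 25 to 84.2). After Asator (1971), a tau tubulin kinase relative, gish had the strongest (1448), and the other kinases dco (327.0), CG7094 (308.9) and CkIalpha (220.8) were weaker. Of 11 genes of Wnt signalling, in which casein kinase I gamma acts at the membrane, 10 had one (90.9%, 62.3 to 98.4, median length 12.5 kb). The strongest were pan (1337), which encodes the nuclear TCF factor, the receptor gene fz (714.2), the kinase gene sgg (630.2) and dsh (508.6), and Axn had none. Of 6 genes for AAA proteins of mitochondria, 3 had a summit (50%, 18.8 to 81.2), at Lon (1306), bor (667.8) and CG6512 (367.8, Afg3l2 in the annotation), in each case outside the gene body. That count includes bor, a chosen gene, and without it 2 of 5 had one (40%, 11.8 to 76.9), near the background. The median gene of every list is longer than that of the genome, and no test was made.

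Other loci with many peaks, at sbb and at psq and lola on another autosome, are given for scale. The region around tara, gish and bor had 26 thresholded summits in 89.1 kb, that of sbb 30 in 89.1 kb and that of psq and lola 34 in 141 kb. Peaks within 500 bp of a TSS made up 15.4% at tara, gish and bor, 10% (3.46 to 25.6) at sbb and 29.4% (16.8 to 46.2) at psq and lola. Intronic peaks made up 57.7% (38.9 to 74.5) at tara, gish and bor, 83.3% (66.4 to 92.7) at sbb and 61.8% (45.0 to 76.1) at psq and lola. A run of A was present at 34.6% of the peaks at tara, gish and bor, at 60% (42.3 to 75.4) of those at sbb and at 52.9% (36.7 to 68.5) of those at psq and lola. The shares met in all 3 libraries were 65.4% at tara, gish and bor, 53.3% at sbb and 52.9% at psq and lola. The intervals of these shares overlap between the 3 regions. CACACACA was at 2 of 26 peaks at tara, gish and bor (7.69%, 2.14 to 24.1), 4 of 30 at sbb (13.3%, 5.31 to 29.7) and 14 of 34 at psq and lola (41.2%, 26.4 to 57.8). At least 2 of the words were at 15.4% (6.15 to 33.5) of the peaks at tara, gish and bor, 36.7% (21.9 to 54.5) at sbb and 55.9% (39.5 to 71.1) at psq and lola. For both, the intervals of tara, gish and bor and of psq and lola did not overlap; no difference was tested.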

How the data were processed

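The 3 ChIP-seq libraries of sqz-GFP embryos were analysed as 1 group, numbered by the labels. Per the records deposited with the files, each library and the 3 combined had peaks called by the authors (build dm6), always with the same control alignment, and the thresholded list came from the irreproducible discovery rate. Fragments were sonicated to 200 to 800 bp per the labels. The aligner, the peak caller and its cut-offs were not given in the sources used here. Each peak has a deposited signal value with no stated scale, which served only to rank peaks within a list; the highest value has rank 1. The deposited -log10 q value reached a ceiling of 3.91 in the thresholded list and was not used for ranking. The thresholded list equals the 6578 strongest peaks of the pooled list, so the cluster rests on pooled strength.

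Genes came from Ensembl release 115 (BDGP 6.54) and sequence from the Release 6 assembly of RefSeq, whose chromosome lengths contain all peaks. Start sites are those of protein-coding genes. Each summit took the first class that applied: within 500 bp of a TSS, then 5′ UTR, protein-coding exon, 3′ UTR, intron, and otherwise intergenic. A library summit within 100 bp, the strongest where several qualified, was taken as the counterpart of a member. Words were sought in 100 bp on each side, both strands; the sequence at peak 24 is not reported here. Intervals on shares are 95% Wilson intervals. No p-value was computed, as there is 1 group and the rule used the peaks. Matching, words and merging were tested on simulated data. Calculations used Python 3.11.15, pandas 2.3.3, scipy 1.17.1 and statsmodels 0.14.6.

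The members, gene lists and words, and the rule for naming genes, were chosen with earlier results of these data known. The rule names the 3 genes, protein-coding genes in the joined window and up to 4 members of each list with the strongest summits. It also names sbb, psq and lola, genes of other loci with many peaks. CycA, Cdk1, Axn and CkIalpha fell outside the rule or were picked with values in view. The alternatives tried covered the flank, match distance, peak set, TSS and word windows and leaving out each replicate.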

Additional observations from a re-analysis of the deposited data

How the results depend on the processing

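Across 11 results and 69 alternatives, 62 values were labelled the same as the reported one and 7 moved. A share was the same if it lay within the reported Wilson interval. A count of peaks, which has no interval, was the same if it lay within a fixed fold of the reported count. The number of peaks at tara, gish and bor was 19 in gene bodies only, 21 and 26 with flanks of 1 and 10 kb and 23 with overlapping intervals merged, and fell to 17 among the strongest 3289 thresholded peaks, which holds fewer peaks by construction. The share met in all 3 libraries was 92.3% with the full lists and 88.2% among the strongest 3289; leaving out 1 replicate gave 65.4% to 73.1%, with 65.4% without replicate 1. The share within 500 bp of a TSS ran from 21.1% to 23.5% and that in introns from 47.1% to 52.6% when each replicate was left out and only peaks met in the other two were kept, against 15.4% and 57.7% with all of them. In the same peaks AAAAAAA was at 42.1% to 47.1%, GAGAG at 36.8% to 42.1%, and CACACACA and CAGCTG each at 10.5% to 11.8%, the highest without replicate 1 for all but GAGAG. For CACACACA and CAGCTG the same 2 peaks each were counted as in the reported 7.69%, out of fewer peaks. The shares of all thresholded peaks were not limited to peaks met in the other libraries, so no direction can be read from this comparison. Those shares were 37.9% within 500 bp of a TSS, 55.6% for AAAAAAA, 9.76% for CACACACA and 8.97% for CAGCTG. Without replicate 1 the members' intervals within 500 bp of a TSS (9.56 to 47.3) and for AAAAAAA (26.2 to 69.0) include them. With words sought within 250 bp, AAAAAAA was at 57.7% of the peaks (73.5% over all thresholded peaks), GAGAG at 73.1% (59.6%) and CACACACA at 34.6% (21.9%). Within 50 bp AAAAAAA was at 30.8% (37.6%), a smaller gap than reported, and GAGAG at 15.4% (17.2%). A wider window holds more words by construction. GAGAG lay below its share over all thresholded peaks in the narrowest window and above it in the wider ones. No paired analysis was possible because there is 1 group. Read depth is unknown, and 26 peaks set the precision.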
